A study of Mus musculus with 3 samples.

Results

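T cells of the mouse meninges were followed through 3 droplet-based single cell RNA sequencing libraries. Cells were chosen by their own transcripts, so the genes of the rule are a description of the chosen cells and not a result. A T cell was a barcode with at least 500 unique molecular identifiers (UMIs, each marking 1 captured transcript), 174 to 4548 detected genes and under 8.3% of UMIs from mitochondrial genes. It also had to hold at least 2 UMIs of *Cd3d*, *Cd3e* and *Cd3g* together, with these making up at least 0.1% of its UMIs, and at most 1 UMI of the natural killer (NK) cell genes *Klre1*, *Ncr1*, *Klra4* and *Klra8*. This rule took 356 of 7057 cells.

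The mice were male C57BL/6J animals aged 10 to 12 weeks with no engineered allele named. Home cage (HC) mice were unstressed, and chronic social defeat (CSD) mice had met 14 days of defeat and were called stress-susceptible by the submitters. Live nucleated cells sorted from the meninges of 4 mice were pooled into each library, giving HC 1 and HC 2 from 8 mice and CSD 1 from 4 mice, after another CSD pool was lost during droplet formation. Each library filled its own lane of 1 chip, so the CSD condition, its only pool of mice and its lane cannot be told apart, and no permutation of 1 library against 2 can give an exact p below 0.333.

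T cells are lymphocytes that recognize antigen through a surface receptor, and the CD3 proteins carry the signal of that receptor into the cell. CD8 T cells read peptides on MHC class I and can kill with granzymes, CD4 T cells read peptides on MHC class II, and gamma-delta T cells use another receptor and, in the meninges, include cells that make interleukin 17. Most T cells of the healthy meninges lie in the dura, the outer membrane, where they persist as resident cells or pass through from blood.

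The 3 CD3 genes of the rule lie beside each other on chromosome 9 of GRCm38, with *Cd3g* at chr9:44969572-44980431 on the minus strand, *Cd3d* at chr9:44981786-44987339 on the plus strand and *Cd3e* at chr9:44998740-45009627 on the minus strand. T cells numbered 131 of 2599 cells in HC 1, 92 of 1702 in HC 2 and 133 of 2756 in CSD 1. Their UMIs summed to 349389, 279326 and 322809, with medians of 2188, 2694.5 and 2018 UMIs per cell. The median T cell held 5 CD3 UMIs in each library, and the highest cells held 21, 18 and 18. No T cell barcode was shared between libraries, while among all cells HC 1 and HC 2 shared 8 barcodes, HC 1 and CSD 1 shared 6, and HC 2 and CSD 1 shared 3.

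At the edge of the rule, 27 T cells held 2 CD3 UMIs and 51 held 3, against 278 with 4 or more. *Thy1*, a surface protein of T cells that the rule did not use, stood at 427 CPM (its UMIs per 1000000 UMIs of the cells summed) in the 27 cells with 2 CD3 UMIs. It stood at 25.8 CPM in the 731 cells left out for holding 1 CD3 UMI. Another 166 cells were left out for CD3 UMIs under 0.1% of their UMIs, with *Thy1* at 109 CPM, and 16 for 2 or more NK gene UMIs, with *Thy1* at 406 CPM. Markers of other cells were present inside the rule as well, since 45 T cells held 1 NK gene UMI and 34 held 2 or more UMIs of the B cell receptor genes *Cd79a* and *Cd79b*.

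The label of T cells held against markers outside the rule. *Thy1* was seen in 68% of T cells against 3.09% of B cells, at 572, 519 and 542 CPM in T cells of HC 1, HC 2 and CSD 1 and 13.2, 21.8 and 9.19 CPM in B cells. *Lat*, the adaptor that receptor signalling assembles on, stood at 321, 333 and 437 CPM in T cells, and *Lck*, the kinase that starts this signalling, at 361, 354 and 443 CPM. *Bcl11b*, a transcription factor of T cell commitment, stood at 163, 215 and 201 CPM. These genes did not separate T cells from NK cells alike. *Thy1* reached 126, 168 and 260 CPM in NK cells and was seen in 18.6%, 30.3% and 36% of them. *Lck* reached 316, 375 and 482 CPM in NK cells and *Bcl11b* 10.5, 25.9 and 19.3 CPM.

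Of the 23 T cell genes listed, 20 had UMIs in T cells and 13 were seen in over 15% of them. *Trac*, *Trbc1* and *Trbc2*, the constant genes of the alpha-beta receptor, were not analysed here, nor were *Trdc* and the *Tcrg-C* genes of the gamma-delta receptor, so receptor class could not be read directly. *Icos*, a costimulatory receptor, stood at 83, 64.4 and 65.1 CPM and was seen in 13.2% of T cells against 0.482% of B cells. *Cd163l1*, a scavenger receptor of gamma-delta T cells at chr7:140218267-140231145 on the plus strand, stood at 129, 32.2 and 49.6 CPM and was seen in 10.4% of T cells against 0.193% of B cells. Its neighbour *5830411N06Rik*, a related scavenger receptor gene, had 0 UMIs in the 356 cells.

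The ratio of mean CPM in T cells to that in all other cells, with 5 CPM added to both, was 46.5 for *Cd3g* and 22.5 for *Cd3d*, the rule's own genes. Next came *Cxcr6*, a chemokine receptor of resident T cells, at 19.7, *Cd8b1* at 17.9, *Thy1* at 17.1, the costimulatory receptor *Cd28* at 15 and *Cd8a* at 14.4. The ratio was 13.8 for *Lat*, 13.5 for *Cd3e*, 13.0 for the adaptor *Skap1*, 12.9 for *Ms4a4b*, 12.4 for the CD3 zeta chain gene *Cd247*, 12.0 for *Lck* and 10.8 for *Bcl11b*. The remaining 6 of the 20 largest ratios were those of *Tcf7*, *Gimap3*, *Sh2d1a*, *Gimap7*, *Ccl5* and *Gimap4*, between 9.03 and 10.5. *Cxcr6* stood at 386, 276 and 409 CPM in T cells and at 158, 116 and 48.2 CPM in NK cells. The chemokine gene *Ccl5* ran the other way, at 5495, 4701 and 6391 CPM in T cells and 10183, 11207 and 13928 CPM in NK cells. *Ms4a4b*, *Sh2d1a* and *Gimap4* were also higher in NK cells of every library. *Ms4a4b* stood at 601, 601 and 613 CPM in T cells against 631, 853 and 771 CPM in NK cells. *Sh2d1a* stood at 85.9, 75.2 and 92.9 against 105, 116 and 193 CPM, and *Gimap4* at 469, 369 and 458 against 589, 608 and 540 CPM. These ratios describe cells selected on CD3 genes and carry no test.

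**Figure D1:**
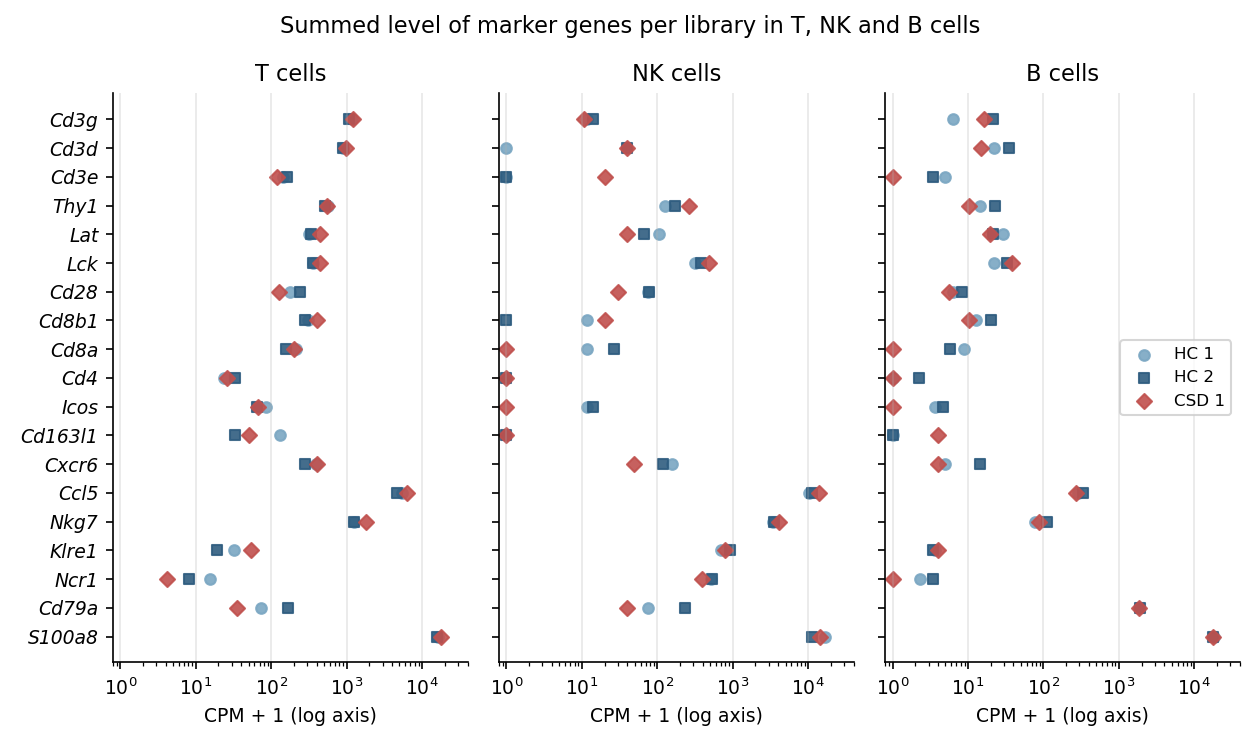
Summed level of 19 marker genes, as CPM + 1 on a log axis, in T, NK and B cells of HC 1, HC 2 and CSD 1, with 1 point per library. The 3 CD3 genes chose the T cells, and *Thy1*, *Lat*, *Cxcr6* and *Cd8b1* also stand higher in T cells than in B cells of every library, while *Ccl5* and *Nkg7* stand highest in NK cells.

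T cells carried transcripts of other meningeal cells. Neutrophil genes (10 of 10 listed with UMIs, *S100a8* the most abundant) summed to 33516, 40483 and 45312 CPM in T cells, and to 113436, 136292 and 171419 CPM in empty droplets, the barcodes of at most 100 UMIs whose RNA is free in the suspension. Myeloid genes (10 of 10, led by *Lyz2*) summed to 6895, 7561 and 5381 CPM in T cells. B cell genes (10 of 10, led by *Cd74*) summed to 3449, 3387 and 1298 CPM in T cells, 5335, 6973 and 2793 CPM in empty droplets and 16647, 16837 and 16092 CPM in B cells. NK genes (16 of 16, led by *Ccl5*) summed to 9425, 8778 and 11050 CPM in T cells and 30106, 30003 and 35268 CPM in NK cells, and *Ncr1* stood at 14.3, 7.16 and 3.1 CPM in T cells. Among 12 genes of group 2 innate lymphoid cells, *Il13*, *Il5*, *Il17rb*, *Calca* and *Rxrg* had 0 UMIs in T cells, and the list, led by *Rora*, summed to 120, 75.2 and 164 CPM. If every UMI of *S100a8*, *S100a9*, *Camp*, *Ngp*, *Ltf*, *Lcn2*, *Retnlg* and *Lyz2* in T cells were free RNA, free RNA would make up 29.3%, 30.8% and 26.7% of the T cell UMIs of HC 1, HC 2 and CSD 1.

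Whether defeat altered the number of T cells was read as a share of cells. T cells made up 5.04% (95% exact binomial interval 4.23 to 5.95) of cells in HC 1, 5.41% (4.38 to 6.59) in HC 2 and 4.83% (4.06 to 5.69) in CSD 1. CSD 1 lay below both HC libraries by less than the width of any interval, 0.397 percentage points under the HC mean of 5.22% ± 0.258 (SD, n = 2). Among T, NK and B cells together the order differed, with T cells at 25.5% in HC 1, 18.9% in HC 2 and 25.6% in CSD 1. Over that denominator the 2 HC libraries differed by more than CSD 1 differed from HC 1, and B cells made up 13.1% of all cells in HC 1, 21.2% in HC 2 and 12.2% in CSD 1. With 1 CSD library no test of a share was made, and intervals here and below cover counting error only.

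**Figure D2:**
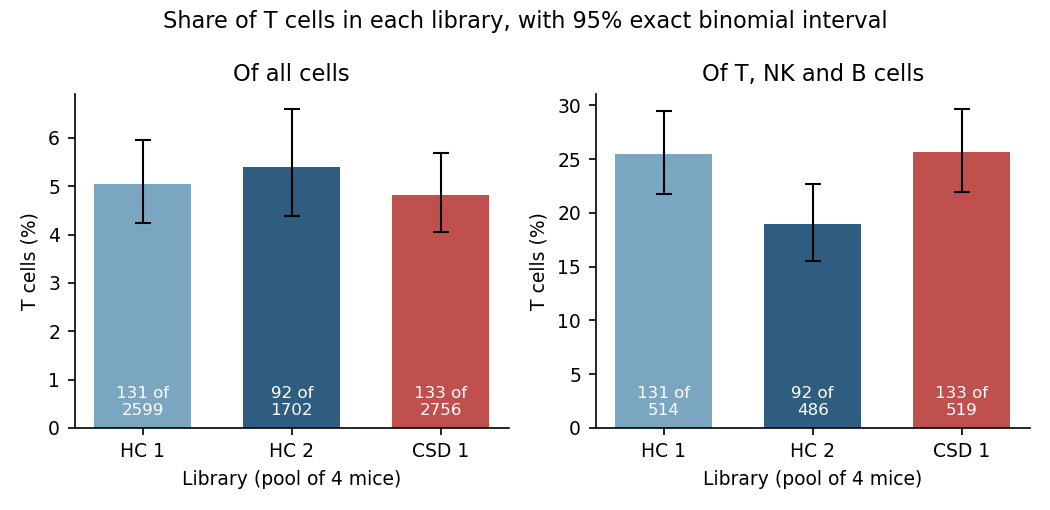
T cells as a percentage of all cells (left) and of T, NK and B cells (right) in each library, with 95% exact binomial intervals as error bars and cell numbers in the bars. The intervals of the 3 libraries overlap on the left, where the shares are 5.04%, 5.41% and 4.83%, and HC 2 is lowest on the right at 18.9%.

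T cells were then sorted into sets by subset markers. Cells with a *Cd8a* or *Cd8b1* UMI, the CD8 coreceptor chains, and none of *Cd4* numbered 43 of 131 in HC 1, 42 of 92 in HC 2 and 52 of 133 in CSD 1 (32.8%, 45.7% and 39.1%). The reverse set, with a *Cd4* UMI and no CD8 UMI, held 6, 7 and 6 cells (4.58%, 7.61% and 4.51%). The set here called type 17 held a UMI of *Cd163l1* or of type 17 genes, *Il17a* and *Il23r* among them, and neither coreceptor, with 22, 5 and 14 cells (16.8%, 5.43% and 10.5%). The other 60, 38 and 61 cells had none of these, which at this depth does not show that they lack the genes. Overlap was rare, with 1 cell holding both coreceptors and 1 holding a type 17 marker beside CD8.

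CSD 1 lay between the HC libraries in its share of the CD8 set and in that of the type 17 set. After each cell was thinned to 500 UMIs, a CD8 UMI remained in 13.7% of T cells in HC 1, 20.7% in HC 2 and 16.5% in CSD 1, against 0.294%, 2.22% and 0.595% of B cells. The median depth before thinning was 2188, 2694.5 and 2018 UMIs in T cells and 1684, 1705 and 1438.5 in B cells. A *Cd4* UMI remained in 0.763%, 2.17% and 1.5% of T cells and in 0 of 340, 361 and 336 B cells. For these zeros the exact binomial intervals reach 1.08%, 1.02% and 1.09%, which limits detection at 500 UMIs and not the share of cells with the gene. At full depth 1 B cell of HC 2 held a *Cd4* UMI. *Cd163l1* remained in 6.11% (2.67 to 11.7), 3.26% (0.678 to 9.23) and 1.5% (0.183 to 5.33) of T cells. Here CSD 1 was lowest, with intervals that overlapped, and without thinning its 9.02% lay between 15.3% in HC 1 and 5.43% in HC 2.

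**Figure D3:**
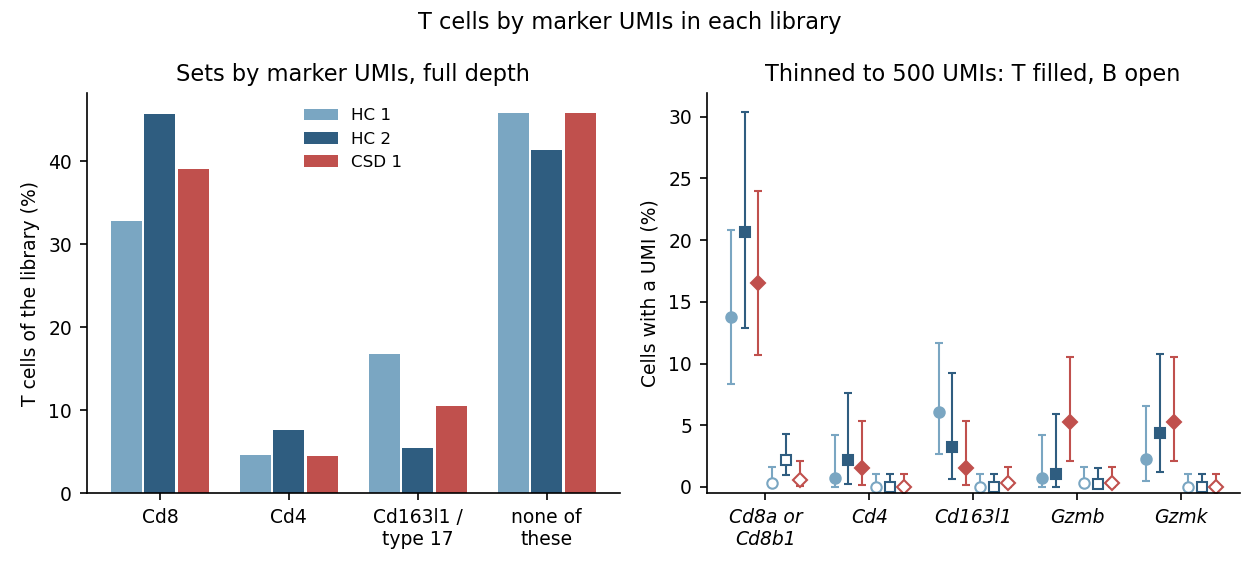
Left, percentage of T cells of each library in 4 sets by marker UMIs at full depth. Right, percentage of T cells (filled) and B cells (open) with a UMI after thinning to 500 UMIs per cell, with 95% exact binomial intervals. The CD8 bars run from 32.8% to 45.7% with CSD 1 between the HC libraries, and T cells of CSD 1 show *Gzmb* in 5.26% after thinning against 0.763% and 1.09% in the HC libraries.

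The CD8 set and the *Cd163l1* and type 17 set differed in genes other than those that formed them. This is a description of cells grouped by transcripts, with genes of at least 20 UMIs over both sets ranked by the ratio of their pooled CPM, 50 CPM added to each, a ranking chosen after the data were seen. *Ccl5* stood at 8280.05, 6995 and 8090.4 CPM in the CD8 set of HC 1, HC 2 and CSD 1 and at 299, 707 and 257 CPM in the type 17 set. *Nkg7*, a cytotoxic granule protein, stood at 1922, 1726 and 2373 CPM against 92.0, 265 and 36.7 CPM. The kinase gene *Lck* stood at 441, 424 and 506 CPM in the CD8 set and at 0 UMIs in every library of the type 17 set. The same pattern of 0 UMIs held for *Cd28* and *Gzmk*, and the adhesion receptor gene *Cd2* held 2 UMIs there, all in HC 2. Depth limits these zeros, since the type 17 set summed to 43487, 11310 and 27236 UMIs.

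Genes higher in the type 17 set included several known from gamma-delta T cells. *Ramp1*, a subunit of the receptor for the neuropeptide CGRP, stood at 1380 CPM in HC 1, 354 in HC 2 and 1065 in CSD 1 against 79.5, 77.8 and 74.2 CPM in the CD8 set. *Maf*, a transcription factor of type 17 cells, stood at 529, 265 and 184 CPM against 21.7, 28.3 and 6.74 CPM. *Tmem176b*, an ion channel gene of type 17 cells, stood at 1357, 442 and 991 CPM against 50.6, 127 and 67.4 CPM. *Cxcr6* was also higher there, at 1403, 442 and 1432 CPM against 224, 219 and 283 CPM, and so was *Il7r*, the receptor of a survival cytokine, at 573 CPM over the pooled set against 126 CPM. *Blk*, a kinase of B cells and gamma-delta T cells, held 14, 0 and 14 UMIs against 0, 3 and 0. The type 17 set of HC 2 is 5 cells, and its values of *Ramp1*, *Maf*, *Tmem176b* and *Cxcr6* rest on 4, 3, 5 and 5 UMIs.

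**Figure D4:**
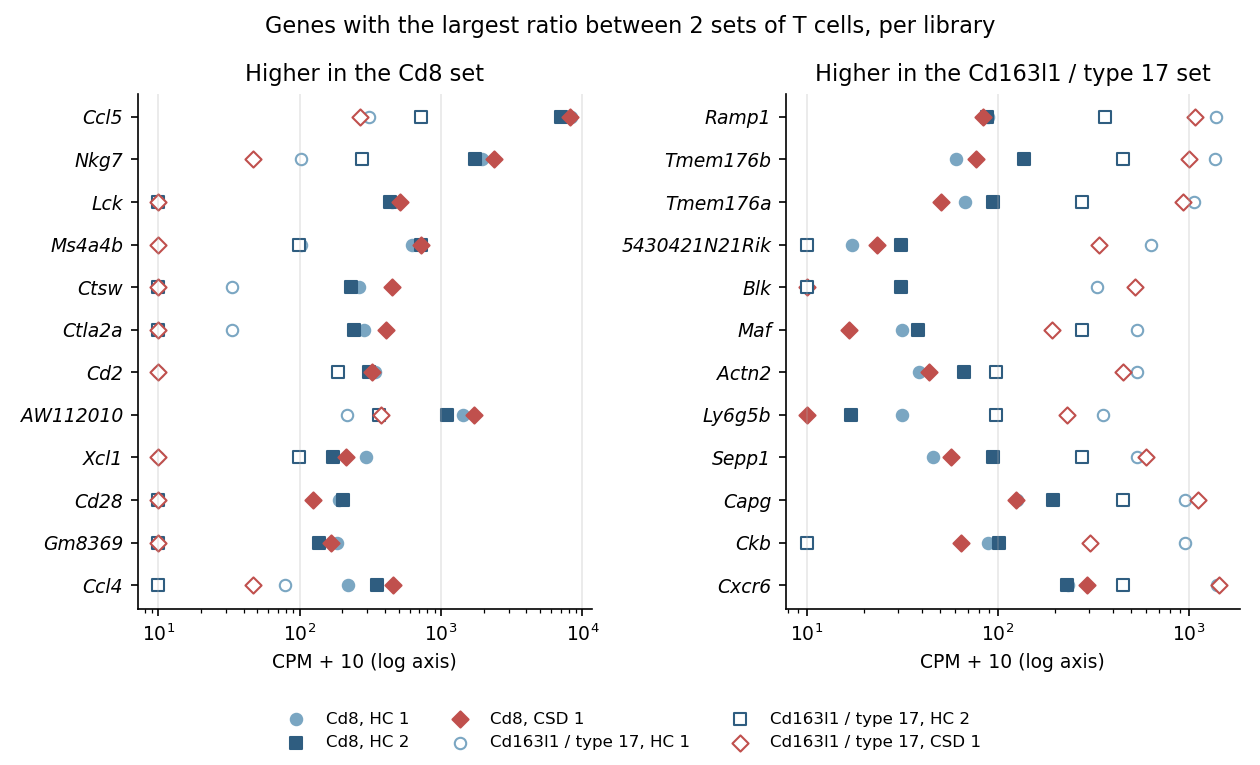
CPM + 10 on a log axis for 12 genes higher in the CD8 set (left) and 12 higher in the *Cd163l1* and type 17 set (right), with filled points for the CD8 set, open points for the type 17 set and 1 point per library. A point at 10 is a gene with 0 UMIs, as for *Lck* in the type 17 set of every library, and the open HC 2 points come from 5 cells.

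The *Cd4* set was small, 19 cells in all. Over these cells *Cd40lg*, the helper ligand, stood at 154 CPM against 2.34 CPM in the CD8 set, *Tnfrsf4* at 173 against 11.7 CPM, *Izumo1r* at 289 against 32.7 CPM and *Icos* at 231 against 28.0 CPM. The 19 cells summed to 51895 UMIs, 27223 of them from 6 cells of HC 1, so these levels rest on few UMIs. *Foxp3*, the regulatory T cell factor, gave 4, 1 and 1 UMIs in all T cells of HC 1, HC 2 and CSD 1. *Il17a*, which helped to define the type 17 set, gave 4, 3 and 6 UMIs, and *Ifng* gave 22, 23 and 36 UMIs and none in the type 17 set. *Il13*, *Il5*, *Csf2* and *Il22* had 0 UMIs. The cells outside the 3 marker sets carried *Ccl5* at 4686 CPM, *Nkg7* at 1101 CPM, *Klrk1* at 257 CPM and *Lck* at 380 CPM over the pooled set.

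Genes of lymph node recirculation were thinly covered in these cells. *Ccr7*, the receptor for entry into lymph nodes, was seen in 7.87% of T cells and *S1pr1*, the egress receptor, in 11.5%. B cells held them in 17.1% and 9.93%, so *Ccr7* was below the share in B cells, which express it. Of residency genes, *Cxcr6* was seen in 44.4% of T cells against 1.25% of B cells, and *Cd69* in 35.1% against 38.1%. *Itgae*, the CD103 integrin of epithelial residence, gave 0, 1 and 2 UMIs.

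What defeat altered inside T cells was tested on UMIs summed per library, 2 HC sums against 1 CSD sum, over genes seen in more than 15% of T cells. That share was taken over the T cells of all libraries together. A gene scarce in CSD 1 could thus enter through the HC libraries, and for such genes the filter favours a fall. edgeR called 17 of 1716 genes (0.991%) at an adjusted p under 0.05, 5 of them higher in CSD (0.291%) and 12 lower (0.699%). The higher genes were 4 hemoglobin genes and a histone gene. Among the lower ones were matrix genes of fibroblasts (*Mgp*, *Sparc*, *Dcn*), MHC class II genes, the B cell gene *Cd79a*, *Mt1*, and *Apoe* and *Ctsh*, which macrophages express. No gene of the T cell list was among them. Across the 1716 genes the median log2 change was −0.03, and 98 genes had an unadjusted p under 0.05. CSD 1 lay above both HC libraries for 30.7% of the 1716 genes and below both for 33%. Counts of genes above or below both HC libraries in the lists that follow are to be set beside these shares. With total UMIs in place of TMM scaling, with cells rich in B cell or neutrophil transcripts left out at 5% of UMIs, or with free RNA subtracted, edgeR called 0 genes (52, 50 and 40 at an unadjusted p under 0.05), and DESeq2 called 1, *Mgp*. Under the first 2 of these settings the log2 fold changes were −3.57 and −3.46 for *Mgp* (main fit −3.58). They were 1.04 and 1.03 for *Hbb-bs* (main fit 1.04), and −1.62 and −1.20 for *Ctsh* (main fit −1.63). There the calls were lost with changes of about that size still present.

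*Mgp*, matrix Gla protein of fibroblasts and vessel walls, fell most. It gave 103 UMIs in HC 1, 103 in HC 2 and 9 in CSD 1, a log2 fold change of −3.58 (SE 0.43, edgeR adjusted p = 5.64e-13). It was spread over 69, 58 and 9 T cells, with no cell above 7 UMIs. These are 52.7%, 63.0% and 6.77% of the T cells of HC 1, HC 2 and CSD 1. *Mgp* thus met the filter on genes only through the HC libraries, where it is high, and that filter favours a fall. With no filter on genes edgeR gave −3.47 (adjusted p = 1.33e-11), and over genes with at least 20 UMIs −3.52 (adjusted p = 0.0154). The collagen-binding genes *Sparc* (34, 27 and 6 UMIs) and *Dcn* (47, 32 and 10 UMIs) fell by 2.39 and 2.03 on the log2 scale. In CSD 1 these UMIs lie in at most 6 and 10 of 133 T cells. Both genes thus met the filter only through the HC libraries, and their calls carry the same limit. With no filter on genes their edgeR adjusted p was 0.0338 and 0.0367, and over genes with at least 20 UMIs 0.326 for both. *Mgp* was lower in CSD in other sums too, at 563, 466 and 39.8 CPM in B cells and at 1686, 1353 and 572 CPM in empty droplets, where its level was above that in T cells of each library. Over the empty droplets themselves edgeR called 0 of 1890 genes, with 73 at an unadjusted p under 0.05. With free RNA subtracted, all 3 genes were left with 0 UMIs in T cells of every library and gave no value.

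MHC class II genes present peptides to CD4 T cells and belong to B cells, dendritic cells and macrophages. All 5 of the 7 listed genes that were tested lay below both HC libraries, against 33% of all genes tested. Their median log2 fold change was −1.46, and 4 passed, against 0.991% of all genes tested. *Cd74*, the class II chaperone, gave 1085, 745 and 341 UMIs (log2 fold change −1.48, SE 0.20, edgeR adjusted p = 3.95e-10). *H2-Aa* gave 524, 348 and 165 UMIs, *H2-Ab1* 600, 426 and 208, and *H2-Eb1* 396, 238 and 116, with log2 fold changes of −1.46, −1.36 and −1.5. *Cd74* was seen in 85.5%, 85.9% and 52.6% of T cells of HC 1, HC 2 and CSD 1, while the 3 highest cells of each library held 50.2%, 50.7% and 62.8% of its UMIs. The highest of them, in HC 1, held 208 *Cd74* UMIs beside 9 CD3 UMIs, 35 of *Cst3* and 1 of *Cd79a*.

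The median log2 fold change of the class II genes was −1.46 in NK cells as well, against −0.30 in B cells and −0.98 in empty droplets. In NK cells *H2-Aa* stood at −1.94, *H2-Ab1* at −1.46, *H2-Eb1* at −2.06 and *Cd74* at −1.02. The summed class II list stood at 7799, 6587 and 2745 CPM in T cells, 12271, 12037 and 5635 CPM in empty droplets and 13563, 13788 and 10836 CPM in B cells. Of the B cell list, which also holds *Cd74*, 4 genes were tested, all 4 lay below both HC libraries, and *Cd74* and *Cd79a* passed. *Cd79a* gave 25, 47 and 11 UMIs in T cells, a log2 fold change of −1.79 (SE 0.47, edgeR adjusted p = 0.0166) that was −1.07 without HC 2. It was seen in 13.7%, 28.3% and 7.52% of T cells of HC 1, HC 2 and CSD 1. *Cd79a* thus met the filter on genes only through HC 2, where it is high, and that filter favours a fall. With no filter on genes its edgeR adjusted p was 0.159. In empty droplets *Cd79a* stood at 169.6, 360.4 and 113 CPM, while in B cells it stood at 1872, 1915 and 1836 CPM. Scrublet, a doublet caller, marked 0, 2 and 5 T cells, by its automatic threshold in the HC libraries but by the highest scores in CSD 1, where that threshold marked 0.109% of cells. Without them *Cd74* had a log2 change of −1.89 (edgeR adjusted p = 3.67e-13), and with free RNA subtracted one of −1.59 (edgeR adjusted p = 0.995).

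*Mt1*, a metal-binding protein that glucocorticoids induce, gave 83, 27 and 17 UMIs, a log2 fold change of −1.73 (SE 0.40, edgeR adjusted p = 0.00315), and −0.86 without HC 1. In CSD 1 its UMIs lie in at most 17 of 133 T cells. *Mt1* thus met the filter on genes only through the HC libraries, and that filter favours a fall. With no filter on genes its edgeR adjusted p was 0.0368, and over genes with at least 20 UMIs 0.994. *Apoe*, a lipid carrier of macrophages, gave 699, 271 and 269 UMIs and fell by 0.87 (SE 0.22, edgeR adjusted p = 0.0106), and by 0.23 without HC 1, and its log2 fold change was −0.07 with free RNA subtracted (edgeR adjusted p = 0.995). Its HC libraries differed by −1.08 (HC 2 over HC 1, log2), more than CSD from HC. For both genes HC 2 stood nearer to CSD 1 than to HC 1. *Ctsh*, a lysosomal protease named after its values were seen, gave 63, 55 and 20 UMIs, a log2 fold change of −1.63 (SE 0.39, edgeR adjusted p = 0.00381). In CSD 1 the cell with the most *Cd74* UMIs held 3 of *Ctsh*, so its UMIs lie in fewer than 20 of 133 T cells. *Ctsh* thus met the filter on genes only through the HC libraries, where it is high, and that filter favours a fall. In T cells the myeloid list had 5 genes tested, 3 below both HC libraries and only *Apoe* past the test, with *C1qa* at 223, 116 and 94 UMIs (edgeR adjusted p = 0.119).

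Hemoglobin transcripts, made by erythroid cells, were higher in T cells of CSD. *Hbb-bs* gave 285, 443 and 810 UMIs (log2 fold change 1.04, SE 0.20, edgeR adjusted p = 3.04e-05) and was seen in 83.2%, 97.8% and 99.2% of T cells. *Hba-a1* gave 143, 236 and 401 UMIs, *Hbb-bt* 78, 133 and 222 and *Hba-a2* 109, 149 and 260, with log2 fold changes of 0.97, 0.97 and 0.91. The HC libraries also differed from each other, by 0.91 on the log2 scale for *Hbb-bs*, and for *Hbb-bt* (1.04) and *Hba-a1* (1.00) by more than CSD from HC. Without HC 2 the 4 log2 fold changes were 1.33 to 1.59, without HC 1 0.52 to 0.65. In empty droplets *Hbb-bs* stood at 2473, 6278 and 12539.7 CPM, the same order of libraries. With free RNA subtracted, 32, 0 and 0 UMIs of *Hbb-bs* were left in T cells, and the other 3 genes likewise kept UMIs in HC 1 only, so the direction of all 4 reversed.

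*Hist1h2ap*, a replication-dependent histone gene, gave 56, 20 and 109 UMIs (log2 fold change 1.47, SE 0.30, edgeR adjusted p = 0.000293). Its HC libraries differed by −1.16 (HC 2 over HC 1, log2). The rise was thus larger without HC 1, at 2.20, and smaller without HC 2. HC 2 was also lowest in B cells, at 2750, 783 and 1732 CPM in HC 1, HC 2 and CSD 1, and in empty droplets, at 681, 186 and 465 CPM. In CSD 1, 50 of the 109 UMIs came from 1 cell and 86 from 3, while the gene was seen in 41, 10 and 24 cells of HC 1, HC 2 and CSD 1. Without the T cells that Scrublet marked, under the rule that differed for CSD 1, its log2 fold change was −0.56. *Stmn1*, also of dividing cells, gave 68, 90 and 148 UMIs and did not pass (edgeR adjusted p = 0.193). *Top2a*, at 20, 18 and 22 UMIs, and *Mki67*, at 7, 8 and 13, were seen in too few cells to be tested.

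**Figure D5:**
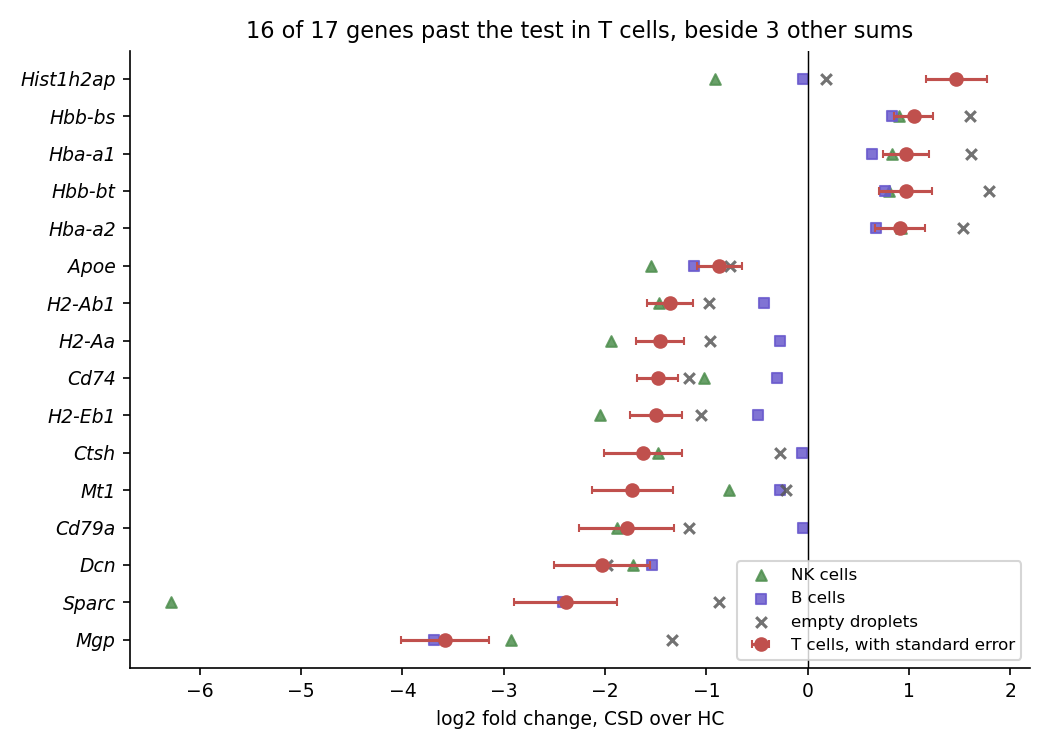
Log2 fold change of CSD over HC for 16 of the 17 genes past the edgeR test in T cells (circles with standard errors), beside the same contrast in NK cells, B cells and empty droplets, which carry no error bars. The 4 hemoglobin genes lie above 0 in all 4 sums, *Mgp*, *Sparc*, *Dcn* and *Apoe* lie below −0.7 in all 4, and the NK value of *Sparc* at the left edge comes from 0 UMIs in CSD and is no measure of size.

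Genes of T cell identity did not pass. With the 3 CD3 genes that chose the cells left out, 10 genes of the T cell list were tested, 0 were called, 5 lay above both HC libraries and 2 below, against 30.7% and 33% of all genes tested, and their median log2 fold change was 0.15. *Thy1* gave 200, 145 and 175 UMIs (−0.04, SE 0.26), with CSD 1 between the HC libraries after scaling. *Cd27*, a costimulatory receptor, gave 38, 29 and 64 UMIs (0.86, SE 0.33, edgeR adjusted p = 0.324) and *Cd28* 61, 67 and 40 (−0.76, SE 0.34, edgeR adjusted p = 0.592). Of 10 receptor signalling genes tested, 0 were called, with a median of 0.08. *Lck* gave 126, 99 and 143 UMIs and *Lat* 112, 93 and 141, both highest in CSD 1 after scaling, and *Ptprc*, the CD45 phosphatase, gave 156, 119 and 132.

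Coreceptor and subset genes did not pass. *Cd8b1* gave 108, 78 and 132 UMIs (0.44, SE 0.28), above both HC libraries after scaling, and *Cd8a* 75, 43 and 64 (0.06, SE 0.31), between them. The 3 tested genes of the gamma-delta and type 17 list, *Tmem176b*, *Tmem176a* and *Maf*, had a median of −0.57 and 0 calls. All 3 lay below both HC libraries, against 33% of all genes tested. *Tmem176b* gave 97, 49 and 51 UMIs, so that HC 2, with 5 cells in the type 17 set, was near CSD 1, with 14. *Tmem176b* also moved in other sums, by −0.90 in NK cells, −0.73 in B cells and −0.78 in empty droplets. *Tnfrsf18*, the tested gene of the regulatory list, gave 39, 35 and 38 UMIs. *Cd163l1*, *Icos* and *Cd4* were seen in too few cells to be tested with this filter. With no filter on genes their log2 fold changes were −0.69, −0.12 and −0.05, and none passed (edgeR adjusted p = 0.941, 0.957 and 0.992).

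Resident and effector genes were called in 0 of 10, with a median of 0.19. Of the 10, 6 lay above both HC libraries and 1 below, against 30.7% and 33% of all genes tested. *Ccl5* gave 1920, 1313 and 2063 UMIs (0.29, SE 0.16, edgeR adjusted p = 0.882) and *Nkg7* 438, 347 and 575 (0.48, SE 0.20, edgeR adjusted p = 0.512), each highest in CSD 1 after scaling. *S100a6* gave 786, 476 and 746 UMIs, and *Ly6c2*, a surface protein of memory CD8 T cells, 323, 278 and 362. The 4 naive and memory genes tested (*Klf2*, *Il7r*, *Tcf7* and *Satb1*) lay below both HC libraries, against 33% of all genes tested. Their median was −0.46, with 0 calls. *Klf2*, which drives egress receptors, gave 81, 158 and 63 UMIs (−1.03, SE 0.31, edgeR adjusted p = 0.0645), and −0.28 without HC 2.

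Genes that respond to stress hormones or to tissue handling had negative medians, with 1 call among them. Of 7 glucocorticoid-responsive genes tested, *Mt1* passed, against 0.991% of all genes tested. Of the 7, 4 lay below both HC libraries and 1 above, against 33% and 30.7% of all genes tested. Their median was −0.40, against 0.42 in NK cells, 0.00 in B cells and −0.17 in empty droplets. *Tsc22d3*, which encodes the glucocorticoid-induced leucine zipper, gave 76, 67 and 82 UMIs (0.12, SE 0.30) and *Nfkbia*, an inhibitor of NF-kappaB, 231, 209 and 160 (−0.53, SE 0.25, edgeR adjusted p = 0.719). Of 12 immediate early genes tested, 0 passed, and their median was −0.40. Of the 12, 8 lay below both HC libraries and 1 above, against 33% and 30.7% of all genes tested. *Fos* gave 233, 190 and 137 UMIs (−0.70, SE 0.26, edgeR adjusted p = 0.308), *Junb* 352, 294 and 255, and *Btg2* 181, 144 and 172. The immediate early median was −0.35 in NK cells, −0.29 in B cells and −0.35 in empty droplets.

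Interferon-stimulated genes, 10 tested, had 0 calls and a median of −0.14, with 2 above both HC libraries and 2 below. Of all genes tested, 30.7% lay above both and 33% below. *Ifi27l2a* gave 228, 202 and 250 UMIs, *Ifitm3* 219, 240 and 194, and *Slfn2* 179, 101 and 120. The 8 MHC class I genes tested, which every nucleated cell uses, had 0 calls and a median of 0.16, with *B2m* at 1115, 786 and 1105 UMIs and *H2-D1* at 551, 494 and 679. Chemokine receptor and egress genes had 0 calls of 9 and a median of −0.04, with *Cxcr6* at 135, 77 and 132 UMIs. Of cytokines, *Ltb*, a ligand that shapes lymphoid tissue, gave 273, 212 and 216 UMIs and *Tgfb1* 22, 30 and 23, neither called. The 3 cell cycle genes tested had 0 calls and a median of 0.12.

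Of 15 actin genes tested, 12 lay above both HC libraries and 1 below, against 30.7% and 33% of all genes tested. The actin genes had 0 calls and a median of 0.17. *Tmsb4x*, which holds actin monomers, gave 6808, 4674 and 6960 UMIs (0.22, SE 0.12, edgeR adjusted p = 0.942). *Actb* went the other way, at 1539, 2304 and 1433 UMIs (−0.53, SE 0.16, edgeR adjusted p = 0.0715), with HC 2 high and HC 1 near CSD 1. Of 97 ribosomal protein symbols, 10 of them kinases of the Rps6k family that were not tested, 82 genes were tested with 0 calls and a median of −0.01, and *Rpl13a* gave 3419, 2780 and 3517 UMIs. The 8 neutrophil genes tested had 0 calls, with 7 above both HC libraries, against 30.7% of all genes tested. Their median was 0.43, against 0.63 in empty droplets and 0.30 in B cells. Their part in the contrasts of T cells was not tested.

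Granzyme genes, the killing proteases, were below the 15% limit and were taken up after their values were seen. *Gzmb* was found in 7 of 131 T cells in HC 1, 4 of 92 in HC 2 and 21 of 133 in CSD 1 (5.34%, 4.35% and 15.8%), against 0.882%, 0.277% and 0.893% of B cells. *Gzmk* was found in 9, 9 and 25 T cells (6.87%, 9.78% and 18.8%), against 0, 1 and 0 B cells. CSD 1 was highest for both, and 20 of its 25 cells with *Gzmk* also held a CD8 UMI, as did 12 of its 21 with *Gzmb*. Thinned to 500 UMIs, *Gzmb* remained in 5.26% of T cells in CSD 1 (2.14 to 10.5) against 0.763% (0.0193 to 4.18) and 1.09% (0.0275 to 5.91), and *Gzmk* in 5.26% against 2.29% and 4.35%, intervals that overlapped. *Gzma* differed, with 12, 8 and 54 UMIs in 8, 8 and 9 cells, 45 of the 54 in a single cell of CSD 1.

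With no filter on genes, edgeR called all 3 granzymes higher in CSD, *Gzma* by 2.46 on the log2 scale (adjusted p = 9.33e-06), *Gzmk* by 1.88 (adjusted p = 0.00448) and *Gzmb* by 1.83 (adjusted p = 0.0265). Over the 4457 genes with at least 20 UMIs none of them passed edgeR (adjusted p = 0.0879, 0.238 and 0.957). The HC libraries were uneven for *Gzmb*, at 18 UMIs in HC 1 and 4 in HC 2 against 38 in CSD 1. Of the 18 in HC 1, 10 came from 1 cell, so the size of its change depends on which HC library is used. Of the *Gzmb* cells, 2 of 7 in HC 1, 0 of 4 in HC 2 and 9 of 21 in CSD 1 held 1 NK gene UMI, and these cells held 11 of 18, 0 of 4 and 15 of 38 *Gzmb* UMIs, so HC 1 held the highest share by UMIs. Of 5 genes of the NK list tested in T cells, 0 were called, 4 lay above both HC libraries and 1 below. Their median log2 fold change was 0.29, and 30.7% and 33% of all genes tested lay above and below. *Klrk1* gave 56, 51 and 74 UMIs and *Klrb1c* 17, 13 and 35. Of the genes the rule limits, *Klre1* gave 11, 5 and 17 UMIs and *Ncr1* 5, 2 and 1. NK cells carried *Gzmb* at 442, 194 and 270 CPM and *Gzma* at 3882, 2469 and 4202 CPM. The part of NK cells in the granzyme values of T cells was not tested.

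Whether T cells and NK cells differed in their contrast was tested by the interaction of cell type with CSD over the 6 sums of the 3 libraries. edgeR called 0 of 1890 genes (0%), with 80 at an unadjusted p under 0.05, and DESeq2 called 0, with 1. *Gzma* had the smallest p, with 12, 8 and 54 UMIs in T cells and 369, 191 and 436 in NK cells, and an interaction of 2.00 on the log2 scale (SE 0.33, edgeR adjusted p = 0.380). It was seen in 7.02% of T cells but in 79.1%, 72.7% and 76% of NK cells of HC 1, HC 2 and CSD 1. *Gzma* thus entered this test only through NK cells, where it is high. It passed under 6 of the alternatives tried, with 45 of its 54 UMIs in CSD 1 coming from the single cell above. None of the 17 genes called in T cells passed the interaction, so for none was the contrast shown to differ between T cells and NK cells.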

How the data were processed

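Cells of the meninges were sorted and captured by the authors on 1 chip, in 3 libraries that are pools of 4 mice, and the deposited UMI counts were made with Cell Ranger 2 on mm10. The deposited values are whole-number counts for 27998 genes and every barcode, with no cell calls, annotation, normalization or doublet removal. The library of a barcode was the number at its end, matched to the group number in the labels. Library totals were 9891861, 8814690 and 10206236 UMIs in HC 1, HC 2 and CSD 1, of which empty droplets held 7.87%, 24.1% and 5.48%. Precision is lowest for genes with few UMIs per sum.

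The members, gene lists and tests were chosen with earlier results of these data known. NK and B cells followed rules that mirror the one for T cells, with *Klre1*, *Ncr1*, *Klra4* and *Klra8*, or *Cd79a* and *Cd79b*, at 2 or more UMIs and 0.1% of UMIs. This gave 126 NK and 1037 B cells. UMIs were summed per library and tested with edgeR 4.0.16 in R 4.3.3 (quasi-likelihood, TMM, two-sided, Benjamini-Hochberg over all genes tested, 1 residual degree of freedom), on genes with a UMI in over 15% of cells. The interaction model held library, cell type and cell type by CSD. For T cells edgeR estimated infinite prior degrees of freedom, so p-values rest on a spread shared over all genes, not on each gene's own difference between the 2 HC pools. For the interaction the prior degrees of freedom were 7.65. A lack of calls there does not show that contrasts were alike.

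Named genes were the markers and rule genes, the 20 largest ratios, up to 4 genes with the most UMIs of each list, and the 5 largest rises and falls past the threshold. Others were named after their values were seen. CPM in the text is UMIs over the summed UMIs of the cells named. Alternatives were DESeq2 1.42.0, other scalings, filters and cell limits, Scrublet (scanpy 1.11.5, automatic threshold in HC 1 and HC 2, marking 1.92% and 0.94% of cells, and a limit at the top 5.1% of scores in CSD 1, marking 3.74% since cells tied at the limit were kept), and subtraction of the empty-droplet profile. Python 3.11.15 with numpy 2.4.6, scipy 1.17.1, pandas 2.3.3 and matplotlib 3.10.9 was used. Gene positions are from GENCODE on GRCm38. More than 1 gene shares each of 56 symbols. Some genes of the lists and calls are not reported here.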

Additional observations from a re-analysis of the deposited data

How the results depend on the processing

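The T cell share (CSD minus the HC mean, −0.397 points) was −0.990 when cells with 2 *Cd79a* and *Cd79b* UMIs or with *S100a8* and *S100a9* at 2% of UMIs were left out, a limit that removed 291 of 356 T cells for *S100a8* and *S100a9*, and 0.171 with that limit at 5% of UMIs, an alternative added after the data were seen. It was 3.42 points over T, NK and B cells and 6.74 points with S100-high cells left out of the denominator. Leaving out either HC library gave −0.580 to −0.215. With either HC library left out, the range was −4.11 to 2.80 for *Cd8* UMIs, −0.670 to 0.740 for *Cd4* and −4.60 to −1.76 for *Cd163l1*. For the CD8 set, a range added after the data were seen, it was −6.55 to 6.27 points. The *Cd4* difference was 9.68 points with the 2% limit (15, 35 and 9 T cells left in HC 1, HC 2 and CSD 1) and −1.96 without thinning, and *Cd163l1* was −11.0 points with the 2% limit. Without thinning *Cd163l1* was seen in 15.3%, 5.43% and 9.02% of T cells of HC 1, HC 2 and CSD 1. With the 2% limit a *Cd8* UMI remained in 13.3%, 17.1% and 11.1%.

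The 17 calls became 6 with no NK gene UMI allowed, 10 at a mitochondrial limit of 5%, 3 with the 2% limit and 0 with the 5% limit, 0 with total UMIs, 1 by DESeq2, 1 over genes with at least 20 UMIs and 0 with free RNA subtracted. The count was 16 with 3 CD3 UMIs, 17 at 1000 UMIs, 18 without Scrublet doublets, 18 with DESeq2 size factors and 25 with no gene filter. Lost calls could leave the log2 fold change in place, as for *Mgp* at −3.46 with the 5% limit and −3.57 with total UMIs. *Hbb-bs* stood at 1.03 with the 5% limit, 1.04 with total UMIs and 1.06 by DESeq2. Direction was kept in every alternative with a value for 12 of the 17 genes. *Mgp*, *Sparc* and *Dcn* had 0 UMIs left after subtraction of free RNA and gave no value there. With free RNA subtracted, log2 fold changes reversed to −5.77 for *Hbb-bt*, −6.96 for *Hbb-bs*, −6.20 for *Hba-a1* and −5.96 for *Hba-a2*, values that rest on 0 UMIs left in HC 2 and CSD 1 and measure no size. The cause of the other changes was not tested. *Hist1h2ap* reversed to −0.56 without Scrublet doublets and −0.11 with the 2% limit. The interaction called 1 gene with no NK gene UMI, 2 at a mitochondrial limit of 5%, and 1 each at 1000 UMIs, with the 5% limit, with no gene filter and at 20 UMIs. *Gzma* was called in all 6, *Gzmb* in the second, and *Gzma* reversed to −4.02 with the 2% limit. Leaving out an HC library leaves no residual degree of freedom, so those log2 fold changes carry no test.

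No paired analysis was possible because the groups share only 1 replicate number. With 1 CSD pool, its spread is taken from the HC pools. The Scrublet rule differed for CSD 1.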
